A study of Rattus norvegicus with 2 samples.

Results

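A set of 10 muscle genes that encode LIM, ankyrin repeat and Xin repeat proteins and their partners were examined in rat muscle pricked with a fine needle. They were Csrp3, Ankrd1, Ankrd2, Ankrd23, Xirp1, Xirp2, Fhl1, Flnc, Nrap and Murc, and they were chosen by name with the signals of both limbs on these same 2 arrays already known, among them the high ratios of Csrp3, Ankrd1 and Ankrd2. Genes were matched by symbol to probe sets with a single gene symbol, and 8 of the 10 were measured, out of 9956 measured genes. Xirp2 and Murc, which the current RefSeq table lists as Cavin4, were not analysed here. The 8 genes had 12 probe sets, of which 11 reached the signal floor on each array and 1 on neither.

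The samples were adductor muscle, which pulls the thigh inward, from male Lewis rats of 275 g, Lewis being an inbred strain. The pricked group was muscle of the left hindlimb, which had received 100 pricks of a 0.14 mm steel needle in a square with sides of 10 mm and was taken after 24 hours. The control group was muscle of the right limb, left untreated. Each group was 1 Affymetrix array, the number of rats is not in the labels, and no test was possible, so that "higher" and "lower" describe these 2 samples.

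These genes are known as part of how striated muscle senses load. Csrp3, Nrap, Xirp1 and Flnc act at the Z-disc, the myotendinous junction or the actin filaments that join them, and the ankyrin repeat proteins bind titin, the elastic filament that runs through the sarcomere. Several of them are induced when muscle is stretched, overloaded or injured, and Csrp3 and Ankrd2 are known to be more abundant in slow than in fast fibres.

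Both columns came scaled alike, with a trimmed mean signal of 76.5 on each. The 10 markers of skeletal muscle, among them Acta1, Ckm, Ttn and Ryr1, were above the floor on both arrays, with log2 ratios of pricked over control from -0.47 to 0.10. The median log2 ratio over all measured genes was 0.019. All 18 hybridisation spike-ins, RNAs added at known doses, gave less signal on the array of the pricked limb, with a median log2 ratio of -0.38. Scaling to them turned the 142 higher and 142 lower genes of the whole array into 535 and 44, of 9986 genes measured under that scaling. The ratios below thus hold relative to the median gene. For beta-actin, the signal at the 3' end of the transcript over that at the 5' end, a gauge of RNA integrity, was 2.43 in the pricked and 2.26 in the control sample. The only error at hand was the spread of log2 ratios between probe sets of the same gene. From 2174 genes, its SD was 0.31 for a single probe set and 0.44 for a difference between 2. For the 724 brightest of these genes, with a mean signal of at least 153, the SDs were 0.25 and 0.35. The SDs below are those of all 2174 genes unless stated. This spread holds no variation between limbs or rats.

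Csrp3, Ankrd1, Ankrd2 and Xirp1 were at least 2-fold higher in the pricked limb, by 5.81-fold, 4.07-fold, 3.35-fold and 2.11-fold. Fhl1 and Flnc were higher by 1.68-fold and 1.66-fold, and Nrap by 1.26-fold. Ankrd23 was the exception, with a ratio of 0.935. Thus 4 of the 8 genes passed 2-fold upward and 0 downward, where 1.43% of all measured genes passed 2-fold upward and 1.43% downward. At 1.5-fold the counts were 6 and 0, beside 6.59% and 6.94% of all measured genes. By probe set, 6 of the 11 passed 2-fold upward and 0 downward, beside 1.24% and 1.78% of all measured probe sets. Since the genes were listed with these values known, the count is a description and nothing is read from the difference. Their median log2 ratio was 0.92, against 0.019 over all measured genes. Among the 1526 genes at least as bright as the dimmest of the 8, 1.31% passed 2-fold upward and 0.459% downward.

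**Figure D1:**
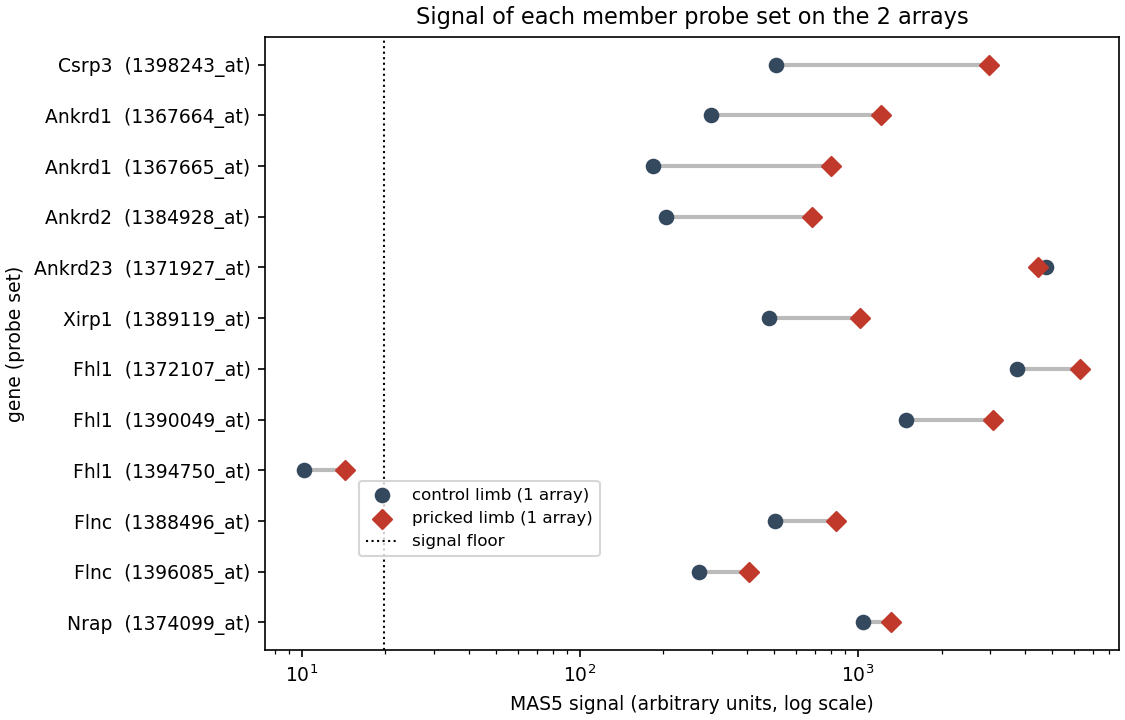
MAS5 signal (arbitrary units, log axis) of the 12 probe sets of the 8 genes on the array of the control limb (dark circles) and of the pricked limb (red diamonds), with 1 array each and therefore no error bars. The dotted line is the signal floor of 19.8. The distance between the points is widest for Csrp3 and for both Ankrd1 probe sets, and the order of the limbs is turned for Ankrd23.

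Csrp3 (Entrez gene 117505, probe set 1398243_at) encodes muscle LIM protein, a small protein with a pair of zinc-binding LIM domains that anchors proteins at the Z-disc and also enters the nucleus. Its signal was 2959 in the pricked limb and 510 in the control limb. That is a log2 ratio of 2.54, or 8.14 times the SD of a single probe set. It was the 10th highest ratio of 9956 genes. Csrp3 had 1 probe set, so no second probe set was at hand to set beside it.

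The other genes of the Csrp family did not come near this ratio. Csrp1, which is widely expressed, had signals of 429 in the pricked and 506 in the control limb, a log2 ratio of -0.24 (0.15 when scaled to the spike-ins), within the SD of 0.31. Csrp2, known from smooth muscle, had signals of 76.9 and 136, a log2 ratio of -0.82. Within the family, Csrp3 was the gene past 2-fold, but it was listed with its high ratio known. The contrast with Csrp1 and Csrp2 thus describes these genes on this pair of arrays.

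Fhl1 (Entrez gene 25177) encodes a protein of several LIM domains, abundant in skeletal muscle, that takes part in hypertrophic signalling at the sarcomere. Its first probe set, 1372107_at, gave 6292 in the pricked and 3740 in the control limb, a log2 ratio of 0.75. The second, 1390049_at, gave 3070 and 1497, a log2 ratio of 1.04. Both showed the pricked limb higher, and they differed from each other by 0.29, less than the SD of 0.44 for a difference between probe sets. They fell on either side of the 2-fold line, so Fhl1 counts as 2-fold higher by one probe set and not by the other. The third, 1394750_at, had signals of 14.4 and 10.2, both below the floor, and gives no ratio. The related Fhl3 had a log2 ratio of 0.35 and Fhl2, better known from heart, one of -0.13, the latter within the SD of a single probe set.

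The muscle ankyrin repeat proteins Ankrd1, Ankrd2 and Ankrd23 form a small family that binds the N2A region of titin and can shuttle to the nucleus. Ankrd1 (Entrez gene 27064), also called CARP, is low in unloaded adult limb muscle and known for its induction by stretch and damage. Its probe set 1367664_at had signals of 1208 in the pricked and 297 in the control limb, and 1367665_at had 804 and 183. The log2 ratios of 2.03 and 2.13 differed by 0.11, so both probe sets gave the same picture of a gene about 4-fold higher. Ankrd1 ranked 17th of all measured genes.

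Ankrd2 (Entrez gene 309374, probe set 1384928_at), first described as a gene induced by passive stretch, had signals of 685 and 204, a log2 ratio of 1.75, and ranked 29th. It lay 0.28 below Ankrd1 on the log2 scale, which is less than the SD of a difference between probe sets. Ankrd23 (Entrez gene 316330, probe set 1371927_at), also called DARP, had signals of 4444 in the pricked and 4755 in the control limb, a log2 ratio of -0.097. This is -0.313 times the SD of a single probe set, and 63.1% of measured genes had a higher ratio. Its log2 ratio lay 2.12 below that of Ankrd1 and 1.84 below that of Ankrd2, which is 4.82 and 4.18 times the SD of a difference. Ankrd1 and Ankrd2 were listed with their high ratios known and each limb was 1 array, so these gaps describe the 3 genes on this pair of arrays.

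The stretches upstream of Ankrd2 and Ankrd23 are given because these relatives differed in ratio. They are the 250 bases before the annotated start, from RefSeq on build GRCr8, read 5' to 3' along the gene, at chr1:250796169-250796418 on the plus strand and chr9:46274511-46274760 on the minus strand. Capitals mark matches, on either strand, to the M-CAT element bound by TEAD factors (CATTCC), the TATA box (TATAAA), the CArG box bound by SRF and the MEF2 box. No match of one kind overlapped another in the sequences printed.
Ankrd2: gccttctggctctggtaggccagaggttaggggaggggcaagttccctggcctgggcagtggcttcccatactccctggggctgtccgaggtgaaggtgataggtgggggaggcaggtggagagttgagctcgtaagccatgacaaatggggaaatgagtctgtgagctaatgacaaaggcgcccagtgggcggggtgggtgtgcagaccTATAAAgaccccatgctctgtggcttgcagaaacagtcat
Ankrd23: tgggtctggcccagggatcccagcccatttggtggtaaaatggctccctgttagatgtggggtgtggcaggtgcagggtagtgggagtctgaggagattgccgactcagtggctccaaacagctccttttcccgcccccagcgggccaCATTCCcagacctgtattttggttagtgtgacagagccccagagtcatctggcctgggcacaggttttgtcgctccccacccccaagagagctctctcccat
Ankrd2 held a TATA box from -40 to -35 relative to the annotated start, and none of the other 3 motifs. Ankrd23 held an M-CAT element from -102 to -97 and no TATA match in this window. Of 33469 windows of the same length in the RefSeq table, 12.1% held an M-CAT element and 12.9% a TATA box, so both matches are common. The E-box (CANNTG) of myogenic factors, left in lower case, occurred at 2 places in Ankrd2 and 3 in Ankrd23, and in 65.5% of windows.

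Xirp1 (Entrez gene 100910104, probe set 1389119_at) encodes Xin, an actin-binding repeat protein that gathers at the myotendinous junction and at sites of sarcomere damage and binds filamin C. Its signal was 1017 in the pricked limb and 481 in the control limb, a log2 ratio of 1.08, or 3.46 times the SD of a single probe set. This put it just past the 2-fold line. Flnc (Entrez gene 362332), filamin C, crosslinks actin at the Z-disc and is recruited to the same lesions. Its probe set 1388496_at gave 838 and 505, and 1396085_at gave 407 and 268. The log2 ratios of 0.73 and 0.60 differed by 0.13, and both stayed below 2-fold. Xirp1 exceeded Flnc by 0.35, within the SD of a difference between probe sets. Flna, the filamin of most other cells, had a log2 ratio of 0.21, within the SD of a single probe set.

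The stretch upstream of Xirp1, at chr8:128635012-128635261 on the minus strand (GRCr8), is shown for its MEF2 box, with capitals as above. It is the first of 3 annotated starts.
Xirp1: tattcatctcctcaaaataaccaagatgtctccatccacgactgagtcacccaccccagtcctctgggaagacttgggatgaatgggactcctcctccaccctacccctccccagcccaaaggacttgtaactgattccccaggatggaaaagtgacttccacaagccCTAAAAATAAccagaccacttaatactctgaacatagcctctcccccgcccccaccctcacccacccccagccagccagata
The MEF2 box lay from -82 to -73. Such a box was found in 2.96% of all windows and a CArG box in 501 of the 33469. The second Xirp1 start lies close to the first and shares the box, while the third held no such match. Flnc held an M-CAT element from -121 to -116, and the first of 2 Fhl1 starts held a CArG box from -102 to -93. Of the 8 measured genes, 5 had an entry in the promoter table, namely Ankrd2, Ankrd23, Xirp1, Fhl1 and Flnc.

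Nrap (Entrez gene 307982, probe set 1374099_at) encodes a nebulin-related protein with a LIM domain that helps assemble myofibrils and sits at the myotendinous junction. Its signals were 1319 and 1046, a log2 ratio of 0.33, which is 1.07 times the SD of a single probe set. Of the 8 genes, Nrap and Ankrd23 were those closest to level. In the descending order Csrp3, Ankrd1, Ankrd2, Xirp1, Fhl1, Flnc, Nrap and Ankrd23, neighbours differed by less than the SD of 0.44, except that Csrp3 lay 0.51 above Ankrd1 and Ankrd2 lay 0.67 above Xirp1. The gap between Nrap and Ankrd23, 0.43, was close to that SD. All 8 genes had a mean signal of at least 374, so they belong with the brighter genes, whose SD was 0.35. Against that SD, the gaps from Flnc to Nrap (0.40) and from Nrap to Ankrd23 (0.43) were larger too. The 8 genes thus spread from a ratio of 0.935 to 5.81-fold. Which steps exceeded the disagreement between probe sets of a single gene depended on the SD used.

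**Figure D2:**
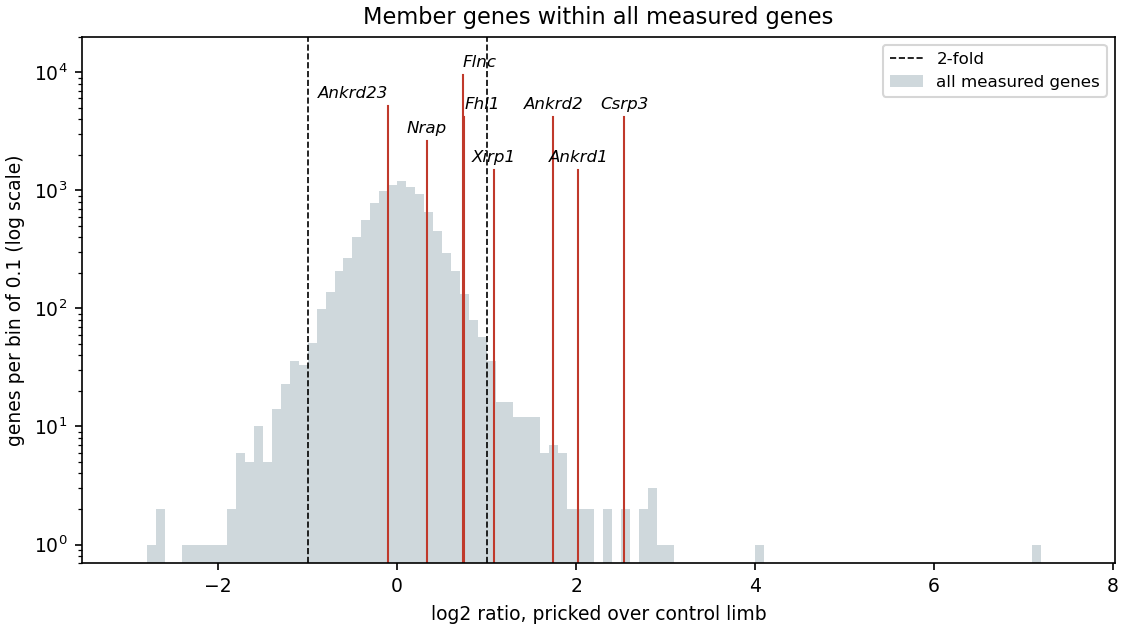
Histogram of the log2 ratio of pricked over control limb for all 9956 measured genes (grey bars, bins of 0.1, log count axis), with red lines at the 8 genes, each by its brightest probe set, and dashed lines at 2-fold. Csrp3, Ankrd1 and Ankrd2 lie in the sparse right tail, Fhl1 and Flnc at its shoulder, and Ankrd23 within the main body. The heights of the red lines carry no value.

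Under the 6 other floors and scalings tried, the log2 ratio of Csrp3 lay between 2.49 and 2.92, that of Ankrd1 (1367664_at) between 1.97 and 2.41, that of Ankrd2 between 1.67 and 2.13 and that of Xirp1 between 1.03 and 1.46. Scaling to the spike-ins gave the highest value each time, since it shifts every probe set above the floor on each array by 0.38. Under that scaling Fhl1 and Flnc also passed 2-fold, which made 6 of the 8 genes, beside 535 of all 9986 measured genes. The sign of Ankrd23 turned, to 0.29. The second Fhl1 probe set fell just short of 2-fold with quantile normalization, at 0.98.

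**Figure D3:**
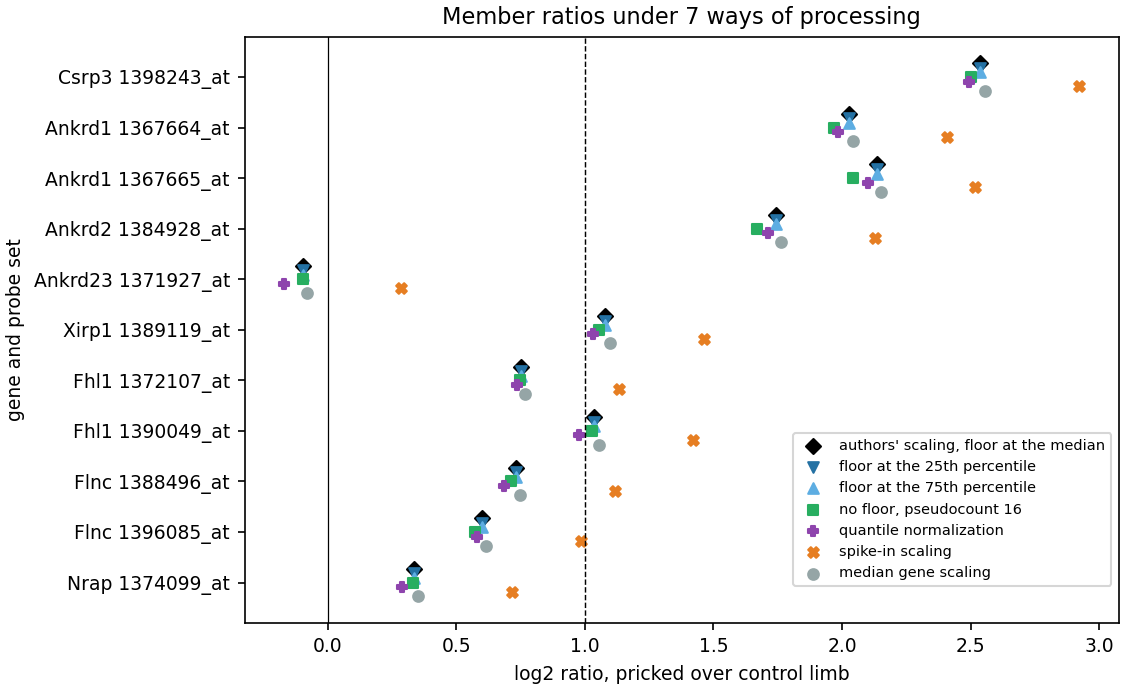
Log2 ratio of pricked over control limb for the 11 probe sets that reached the floor on each array under 7 ways of processing (symbols), with lines at 0 and at 2-fold (dashed). Points of a probe set lie close together except those scaled to the spike-ins (orange crosses), which lie 0.38 to the right, and Ankrd23 alone changes sides of 0.

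Genes that work with these proteins were examined as 7 lists of 100 genes in all, of which 82 were measured. Of the 82, 2 passed 2-fold upward and 2 downward, and their median log2 ratio was -0.12, beside 1.43% of all measured genes in each direction and a median of 0.019, so nothing is read from the count. Scaling to the spike-ins made the counts 6 and 1, beside 535 and 44 of 9986 genes in all. It turned the small negative medians of the Z-disc, costamere and caveola lists to 0.23, 0.18 and 0.32, so their signs carry no weight. The 2 higher genes were Myoz2 and Itga7, and the 2 lower ones Egr1 and Acta2.

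Of 18 measured Z-disc genes that include partners of Csrp3, Xirp1 and Flnc, 1 was at least 2-fold higher and 0 lower by the brightest probe sets. The median was -0.16. Synpo2 had -0.29 by its brightest probe set and -0.77 by 1384160_at. Its dim 1376398_at was past 2-fold lower, at -1.18 (10.8 against 44.7, the former below the floor). Myoz2, calsarcin-1, a calcineurin-binding Z-disc protein of slow fibres and heart, was 2.78-fold higher (593 against 213). Its fast-fibre relative Myoz3 had a log2 ratio of -0.86 and a second probe set at -1.07, and Ldb3, a PDZ and LIM protein also called ZASP, had one of -0.67 by its brightest probe set and of -0.27, -0.33 and -0.34 by the other 3. Tcap, the titin cap that binds Csrp3, had signals of 6856 and 8042, a log2 ratio of -0.23, and the alpha-actinins Actn2 and Actn3 had 0.20 and -0.42. Pdlim3, an actinin-associated LIM protein, had 0.45. Csrp3 was 5.81-fold higher in the pricked limb, while Tcap, Actn2 and Actn3 were within 2-fold. Csrp3 was listed with its high ratio known, so nothing is read from this difference.

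Titin and genes of its I-band and M-band regions had 10 measured members, with 0 past 2-fold in either direction and a median of 0.094. Ttn itself had signals of 3547 and 3316, a log2 ratio of 0.097, and Mypn (myopalladin) and Capn3 (calpain 3), which meet the ankyrin repeat proteins on titin, had -0.066 and 0.029. All 3 were within the SD of a single probe set. Trim63, the ubiquitin ligase MuRF1 that binds titin near its kinase domain, was the most different at 1.81-fold higher (1584 against 874), followed by Smpx at 0.55, Myom1, a crosslinker of the M-band, at -0.52, and the autophagy receptor Sqstm1 at 0.21.

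Of 17 measured costamere and adhesion genes, which tie the sarcomere to the matrix, 1 was at least 2-fold higher and 0 lower, with a median of -0.20. Itga7, the laminin-binding integrin subunit of muscle, had a log2 ratio of 1.01 by one probe set and 0.022 by another, so its probe sets disagreed. Parva had -0.31 by its brightest probe set, while the dimmer 1370266_at was past 2-fold lower, at -1.34 (30.3 against 77.0). Ilk, integrin-linked kinase, had 0.67, while Itgb1bp2, the mechanosensor melusin, had -0.53 and Sorbs2 had -0.50. Of 7 measured caveola genes, listed because Murc encodes a caveola protein, 0 passed 2-fold and the range was from -0.25 (Pacsin3) to 0.25 (Cavin2) by the brightest probe sets, within the SD of a single probe set. Cav3, the caveolin of muscle, had a log2 ratio of 0.040, and the remaining named ones, Ehd2 and Cav2, had -0.23 and -0.066. Other probe sets disagreed for Cav2, where 1370135_at gave -1.14 (29.0 against 63.9), and for Cav1, where 1370131_at gave -0.51 beside the -0.062 of the brightest.

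YAP and TEAD genes and targets, a pathway that responds to stretch through M-CAT elements, had 12 measured members, 0 past 2-fold and a median of 0.014. The classical target Ccn2 had a log2 ratio of 0.30. The members furthest from 0 went both ways, with Lats1 at 0.64 and Vgll3, whose control signal was below the floor, at least 1.38-fold higher, against Ajuba at -0.84 and Lats2 at -0.65. All 10 measured SRF and MRTF genes and targets lay below 0 (6 when scaled to the spike-ins), with a median of -0.38, 0 past 2-fold upward and 2 downward. Egr1, an immediate early gene, was 3.10-fold lower and Acta2, smooth muscle actin, 2.28-fold lower. Skeletal actin, Acta1, had -0.47, Tagln -0.47 and Srf itself -0.26, with other Srf probe sets at -0.36 and -1.13, the last with signals of 34.1 and 74.9. Scaled to the spike-ins, the median of the list was -0.081, and 1 gene, Egr1, was past 2-fold. The last list held close relatives, among them Csrp1, Csrp2, Fhl2, Fhl3 and Flna, but also Lmod1 and Lmod2, which are not of the same families. Of its 8 measured members, 0 passed 2-fold and the median was 0.043, a value that includes Lmod1 and Lmod2. Lmod2, an actin filament nucleator of muscle, had 0.85 and Lmod1 had 0.43, both above Fhl3 at 0.35, the highest of the relatives.

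**Figure D4:**
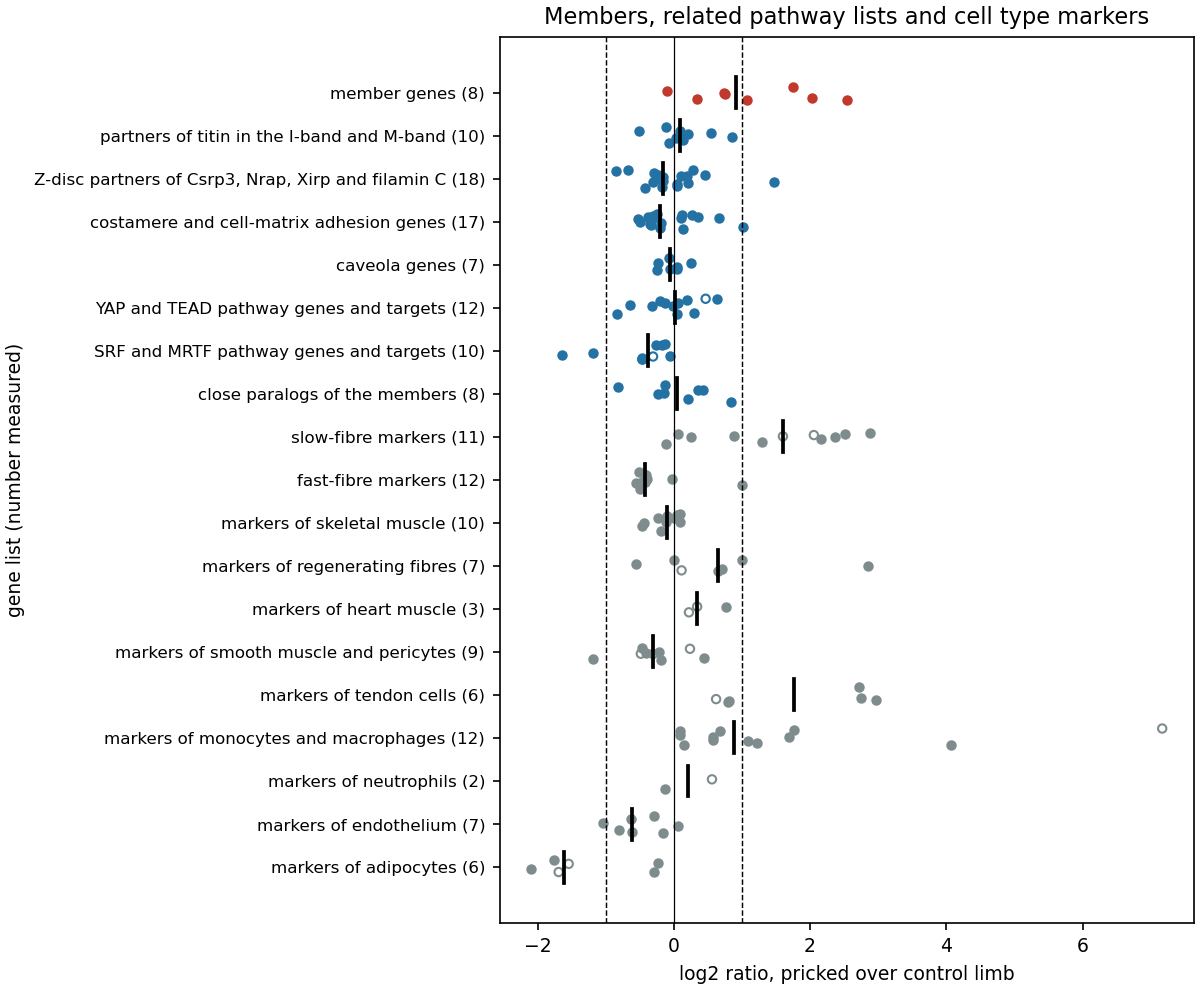
Log2 ratio of pricked over control limb of the 8 genes (red), of 7 lists of related genes (blue) and of 11 lists of cell type markers (grey), 1 point per measured gene, filled where both arrays were above the floor and open where 1 was below it, so that an open point understates the ratio. Black bars are medians, dashed lines 2-fold, and the vertical scatter carries no value. The medians of the blue lists lie between -0.38 and 0.094, and that of the red points is 0.92. The red genes were listed with high ratios among them already known, so nothing is read from this difference. Slow-fibre, tendon and macrophage markers reach the same range as the red points.

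Most slow-fibre markers were higher in the same sample. Of 11 measured, 7 were at least 2-fold higher and 0 lower, beside 1.43% of all measured genes in each direction. The median log2 ratio of the 11 was 1.60. Their summed signal was 8356 in the pricked and 7289 in the control limb, most of it from Mb (5505 and 5935). Tnnc1 had signals of 232 and 31.4, Myl2 571.9 and 100.6, Sln 191 and 37.0 and Tnni1 176 and 39.3. Tnnt1 and Myh7, with control signals below the floor, were at least 4.16-fold and 3.04-fold higher. Another Myh7 probe set, its control signal also below the floor, gave a log2 ratio of 0.19. Myl3 and Tpm3 were near level, at 0.064 and 0.25, and other Tpm3 probe sets lay on both sides of 0. Of 12 measured fast-fibre markers, 0 passed 2-fold in either direction and the median was -0.42 (-0.038 when scaled to the spike-ins), with a summed signal of 99459 against 133299.9. In that list Myh2, the myosin of fast oxidative fibres, had 0.997, and Tpm1, Pvalb and Myl1 had -0.56, -0.51 and -0.49, with a dimmer Tpm1 probe set at 0.22. Of the 10 general markers of skeletal muscle, 6 lay below 0 and 4 above, and the bright Acta1 and Ckm had -0.47 and -0.44. The fast-fibre values are thus not particular to that list. Since the samples are bulk tissue, more cells or fibres of a type and more RNA per fibre cannot be told apart, and the part of fibre type in the values of Csrp3 and Ankrd2 was not tested.

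Markers of tendon cells were also higher, with 3 of 6 measured at least 2-fold higher and 0 lower, beside 1.43% of all measured genes in each direction. The 6 had a median of 1.77 and a summed signal of 1493 against 355. Thbs4, Tnmd and Fmod were 7.84-fold, 6.69-fold and 6.58-fold higher, and Scx, the transcription factor of tendon progenitors, had 0.81. Scaled to the spike-ins, 5 of the 6 passed 2-fold, beside 535 of all 9986 genes. Xirp1 and Nrap are known from the myotendinous junction, and the part of tissue near tendon in their values was not tested. Of 12 measured macrophage markers, 6 were at least 2-fold higher and 0 lower, again beside 1.43% of all measured genes in each direction. The 12 had a median of 0.88 and a summed signal of 10529 against 2260, led by Spp1, Gpnmb, Lgals3 and Tyrobp. Much of that sum came from Gpnmb (3165 against 188) and Spp1 (2847 against 12.7, the latter below the floor). The markers Itgam, Cd14 and Cd163 were near level, at 0.15, 0.084 and 0.090. The part of macrophages was not tested either.

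Markers of regenerating fibres had 7 of 10 measured, with 1 at least 2-fold higher and 0 lower, beside 1.43% of all measured genes in each direction. The 7 had a median of 0.65 and a summed signal of 1023 against 694. Chrnd, an acetylcholine receptor subunit, was 7.18-fold higher, Myog had 0.99, Ncam1 0.71 and Chrna1 0.65, while Cdh15 had -0.55 (49.6 against 72.6) and Myod1 0.0071. Scaled to the spike-ins, which shifts such ratios up by 0.38, 4 of the 7 passed 2-fold upward, beside 535 of all 9986 genes. The developmental myosins Myh3 and Myh8 and the receptor subunit Chrng were below the floor on both arrays. Of the heart markers, which matter because Csrp3, Ankrd1 and Nrap are also heart genes, Tnni3, Tnnt2, Myh6, Myl7 and Ryr2 were below the floor on both arrays. The 3 measured were Myl4, with a log2 ratio of 0.76, and Nppb and Nppa, each with the control signal below the floor and at least 1.27-fold and 1.17-fold higher, and their summed signal was 314 against 177.

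Markers of the other cell types had medians below 0 or were little measured. Their counts stand beside the 1.43% of all measured genes that passed 2-fold in each direction. Smooth muscle markers had 0 of 9 at least 2-fold higher, 1 lower (Acta2) and a median of -0.30, with a summed signal of 8624 against 10219 that was mostly Des, also a muscle gene. Smtn had 0.44 by one probe set and -0.47 by another. Endothelial markers had 0 of 7 higher, 1 lower (Kdr, at -1.04), a median of -0.61 and a summed signal of 559 against 804, with Pecam1 at -0.80. Scaled to the spike-ins, these 2 medians were -0.019 and -0.23, with 4 of 9 and 3 of 7 genes above 0, and neither Acta2 (-0.81) nor Kdr (-0.66) passed 2-fold. Adipocyte markers had 0 of 6 higher, 4 lower, a median of -1.62 and a summed signal of 1325 against 3028, led by Cfd at -2.09. Of the neutrophil markers 2 were measured, S100a9 at -0.14 and Csf3r, with its control signal below the floor, at least 1.47-fold higher, at a summed signal of 70.9 against 59.98, and S100a8, Camp and Cxcr2 were below the floor on both arrays.

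The genes outside the list whose log2 ratio over these 2 arrays came closest to the 2.54 of Csrp3, among those above the floor on both, were Myl2 (2.51), Sln (2.37), Fmod (2.72), Tnmd (2.74) and Chrnd (2.84). The measure of likeness was the difference in log2 ratio, from 0.031 for Myl2 to 0.31 for Chrnd, and with 2 arrays it says no more than that the ratios were of like size.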

How the data were processed

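Total RNA of 2 muscle samples was hybridised to 1 Affymetrix array each. The deposited values are linear signal intensities per probe set. The authors made them with MAS5, as the submitters' processing notes record, and this algorithm combines perfect-match and mismatch probes and scales each array by a single factor. For its version and scaling target, nothing was given in the sources used here.

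Of 31099 probe sets, 57 manufacturer's controls were left out, and 20826 of the others had 1 gene symbol. Signals below a floor of 19.8, the median of both arrays, were set to that floor, and the log2 ratio was then taken. A gene counted as measured where 1 array reached the floor, and stood by its probe set of highest mean log2 signal. A call was a 2-fold difference, with no p-value, as there is 1 array a group. The number of arrays limits the precision.

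Named were each listed gene and probe set, up to 4 genes of largest absolute log2 ratio in each related list and marker list, and the 5 genes nearest Csrp3 in ratio. Other list genes named were chosen after their values were seen. The genes and lists were chosen with earlier results of these data known. Promoter windows and gene names came from RefSeq (GRCr8). The counting was tested on simulated data. Python 3.11.15, NumPy 2.4.6 and pandas 2.3.3 were used. The alternatives were other floors, scalings, probe set rules and a 1.5-fold threshold.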

Additional observations from a re-analysis of the deposited data

How the results depend on the processing

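No paired analysis was possible because each group has 1 array, and the labels do not say whether both limbs came from the same rat. The count of 4 of 8 listed genes at least 2-fold higher was the same under 8 alternatives, while the count of lower ones stayed at 0. It became 6 with scaling to the spike-ins, under which 535 of all 9986 genes were at least 2-fold higher. With a 1.5-fold threshold it also became 6, beside 6.59% of all genes. The median log2 ratio of the 8 listed genes, 0.92, moved to 1.30 under spike-in scaling. Of the 11 probe sets, 6 were at least 2-fold higher, beside 1.24% of all measured probe sets. The 6 became 5 with quantile normalization, where 169 of 9946 genes passed upward, and 8 with spike-in scaling. Of the 82 related genes, the 2 higher ones became 1 with a pseudocount of 16, with the median over probe sets, with the probe set of highest control signal or without suffixed probe sets, and 6 with spike-in scaling, under which the 2 lower ones became 1. With a floor at the 25th percentile, which admits dimmer genes, the count of higher ones in these lists was 3. No listed probe set past 2-fold changed sign under any alternative run. With a floor at the 25th percentile, 474 genes of the whole array were at least 2-fold higher and 596 lower, and with one at the 75th percentile 52 and 49. With 1 array a group, the spread between limbs and between rats is unknown.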

Other observations

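Further muscle genes that bind or neighbour these proteins, chosen after their values were seen, went both ways. Hspb7, a small heat shock protein that binds filamin C, was 3.37-fold higher in the pricked limb (1747 against 519), and its other probe set gave a log2 ratio of 0.64. Hspb1, another small heat shock protein, was 1.89-fold higher (5285 against 2802). Ky, a protease-like protein that binds filamin C and whose loss causes a spine and muscle disorder in mice, was 1.98-fold lower (461 against 912), and its other probe set gave -1.18 on the log2 scale. Cmya5, myospryn, had a log2 ratio of -0.40.

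Mustn1, a small nuclear protein of muscle and bone repair, was 3.51-fold higher (4419 against 1260). Klhl40, a chaperone of thin filament proteins mutated in nemaline myopathy, was 1.89-fold higher (991 against 526), while its relative Klhl31 had a log2 ratio of 0.37. The LIM protein gene Lmcd1 had a log2 ratio of 0.70 and the GTPase gene Rrad one of 0.77. Ampd3, an AMP deaminase, was 2.94-fold higher (163 against 55.3). These are values of 2 arrays with no replicate check.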
